A study of Mus musculus with 9 samples.

Results

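The miRNAs described here were those of the imprinted Dlk1-Dio3 cluster of the mouse, chosen by name alone: every array entry whose number was one of 50 hairpin numbers of the cluster, with both arms of a hairpin where the array carried them. This gave 107 members among the 1247 mouse miRNAs of the array, from 55 hairpins, of which 52 had 2 arms on the array. They were measured in hippocampi of C57BL/6 mice, males of approximately 8 weeks of age, on 9 Agilent one-colour mouse miRNA arrays, on which Cy3-labelled RNA binds to short DNA probes and the fluorescence of each spot is read. All mice were dosed by oropharyngeal aspiration, in which a drop placed at the back of the throat is breathed in, every other day for 4 weeks. The control group received saline, and the others received PM2.5 (fine airborne particles, collected on filters in a city in winter and suspended in saline) at a dose of 1 mg/kg bw or 5 mg/kg bw, where bw is body weight, with 3 arrays per group. The study also had a vehicle group given saline prepared from a control filter, which no array label names. Effects of the particles and of filter extract therefore cannot be told apart here. Mice of all groups were put under isoflurane, an inhaled anaesthetic, for each dosing, and no altered allele is named for them. The RNA came from whole hippocampus, so that fewer cells of a type and less miRNA per cell cannot be told apart in any value given here. In the study's description, the 3 control arrays and the 3 arrays at the higher dose are each from an individual mouse; for the 1 mg/kg bw arrays this is not given in the sources used here.

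The Dlk1-Dio3 region is one of the imprinted regions of the mouse genome. The protein-coding genes Dlk1, Rtl1 and Dio3 are expressed from the paternal chromosome, and the long non-coding RNAs Meg3, Rian and Mirg from the maternal chromosome. The miRNAs of the region are made from the maternal transcripts, several of them from RNA that lies antisense to Rtl1 and can cleave its mRNA. The large group from miR-379 to miR-410 is known for its expression in neurons, its induction by neuronal activity through the transcription factor Mef2, and roles in the growth of dendrites and spines.

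In RefSeq (build GRCm38.p6), 100 of the 107 members were matched by name to a mature sequence. Of these, 99 lay on chromosome 12, 95 on the plus strand and 4 on the minus strand, and their hairpins spanned 184.3 kb from 109563692 to 109747960. Within that span, 2 matched members lay inside the annotated interval of Meg3, 22 inside that of Rtl1, 4 inside that of Rian and 18 inside that of Mirg. The 1 other was miR-496b, which RefSeq places on chromosome 19. The array files agreed, with probe positions on chromosome 12 for 106 of 107 members. Of 264 probe positions compared, 253 lay inside the RefSeq mature sequence with a tolerance of 2 bases. miR-3070a-3p, miR-3070a-5p, miR-3070b-3p, miR-376c-3p, miR-485-5p, miR-487b-3p and miR-539-3p were not matched by name.

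The sequences of the members on which the results turn are given 5′ to 3′ in lower case, with the seed (bases 2 to 8, which pair with target mRNAs) in capitals. The 7 members that passed an unadjusted p under 0.05 in at least 1 comparison had 7 different seeds.
miR-381-3p, chr12:109726870-109726891, plus strand: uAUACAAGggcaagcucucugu
miR-376a-3p, chr12:109723824-109723844, plus strand: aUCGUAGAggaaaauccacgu
miR-127-5p, chr12:109592854-109592875, plus strand: cUGAAGCUcagagggcucugau
miR-540-5p, chr12:109586085-109586107, plus strand: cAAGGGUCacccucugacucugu
miR-136-5p, chr12:109595331-109595352, plus strand: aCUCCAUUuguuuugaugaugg
miR-337-5p, chr12:109585818-109585839, plus strand: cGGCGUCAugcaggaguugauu
miR-411-3p, chr12:109710225-109710246, plus strand: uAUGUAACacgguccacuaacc

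Some of them have a close relative among the members detected on all arrays, shown because array probes for near-identical miRNAs may bind both. Compared base by base from the 5′ end, miR-379-3p and miR-411-3p were identical at 20 of 22 bases and were the only pair of matched, detected members with the same seed. miR-300-3p and miR-381-3p shared 19 of 22 bases, miR-376a-3p and miR-376b-3p 18 of 21, and miR-495-3p and miR-543-3p 18 of 22. In all, 14 members shared 7 of the 93 seeds, 2 members to a seed.
miR-379-3p, chr12:109709102-109709123, plus strand: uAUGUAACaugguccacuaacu
miR-300-3p, chr12:109724363-109724384, plus strand: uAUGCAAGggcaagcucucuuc
miR-376b-3p, chr12:109723508-109723528, plus strand: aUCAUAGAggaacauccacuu
miR-495-3p, chr12:109718795-109718816, plus strand: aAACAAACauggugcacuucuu
miR-543-3p, chr12:109717304-109717325, plus strand: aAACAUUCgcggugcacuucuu

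The members next shown, with miR-487b-3p, made the pairs that varied most closely together over the arrays.
miR-409-5p, chr12:109743172-109743194, plus strand: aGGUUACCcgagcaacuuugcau
miR-370-3p, chr12:109618305-109618326, plus strand: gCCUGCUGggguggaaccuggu
miR-666-3p, chr12:109717140-109717161, plus strand: gGCUGCAGcgugaucgccugcu

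With miR-3070b-3p, the following ran against the mean of the other members.
miR-3072-5p, chr12:109747893-109747914, plus strand: aGGGACCCcgagggagggcagg
miR-299b-5p, chr12:109710673-109710693, minus strand: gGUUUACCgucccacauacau
miR-494-3p, chr12:109715367-109715388, plus strand: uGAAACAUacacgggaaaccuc
miR-154-5p, chr12:109738438-109738459, plus strand: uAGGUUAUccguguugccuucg

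Between 410 and 436 miRNAs were detected per array, of which 57 to 59 were members. The lists of neuronal (5 miRNAs), general neural (2), oligodendrocyte (2) and endothelial (2) markers were detected in full on all 9 arrays, and the liver marker miR-122-5p on none. Of 3 muscle markers, not part of hippocampus, miR-1a-3p and miR-133a-3p were detected on all arrays and miR-206-3p on none. No spot was saturated. The 75th percentile of the signal, by which each array was scaled, lay between 492 and 614 units. The arrays lay on 2 slides, the second of which held replicate 3 of the 5 mg/kg bw group alone, so that this slide and this array cannot be told apart. On the first slide the row ran with dose: row 1 held the 3 control arrays and replicate 1 of the 1 mg/kg bw group, and row 2 held replicates 2 and 3 of that group and replicates 1 and 2 of the 5 mg/kg bw group. Replicate 3 of the 5 mg/kg bw group was in row 1 of the second slide, and on the first slide row and dose cannot be told apart between control and 5 mg/kg bw. The median SD within a group was 0.14 on the log2 scale for the members as for all miRNAs tested.

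Detection is the call of the extraction software that a miRNA's signal is above background. Of the 107 members, 57 (53.3%) were detected on all 9 arrays, 2 on some arrays and 48 on none, against 395 (31.7%) of all array miRNAs detected on all arrays. By position along the chromosome, 10 of 12 entries of the group antisense to Rtl1 (miR-431, miR-433, miR-127, miR-434, miR-3071 and miR-136) were detected throughout. The 2 undetected ones were the arms of miR-3071, which was put in this group by its number. They lie on the minus strand, opposite to the other entries of the group, so not all 12 are antisense. In the group around miR-379 to miR-410, 39 of 75 entries were detected throughout. The group from miR-770 to miR-3070 lies upstream of both groups, with its matched hairpins inside the annotated Meg3 (miR-770) or Rtl1 intervals. It had 6 of 15 entries detected on all arrays, and the Rian interval (miR-341 and miR-370) had 2 of 4. The entry on chromosome 19 was not detected. Both arms were detected on all arrays for 15 hairpins, 1 arm for 27 and no arm for 13. Among hairpins with 2 arms on the array and 1 detected, the 3p arm was the detected one in 18 and the 5p arm in 8. The 7 array entries that lie in the same span under other names, such as miR-1188-5p and miR-3544-5p, were not detected on any array.

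**Figure D1:**
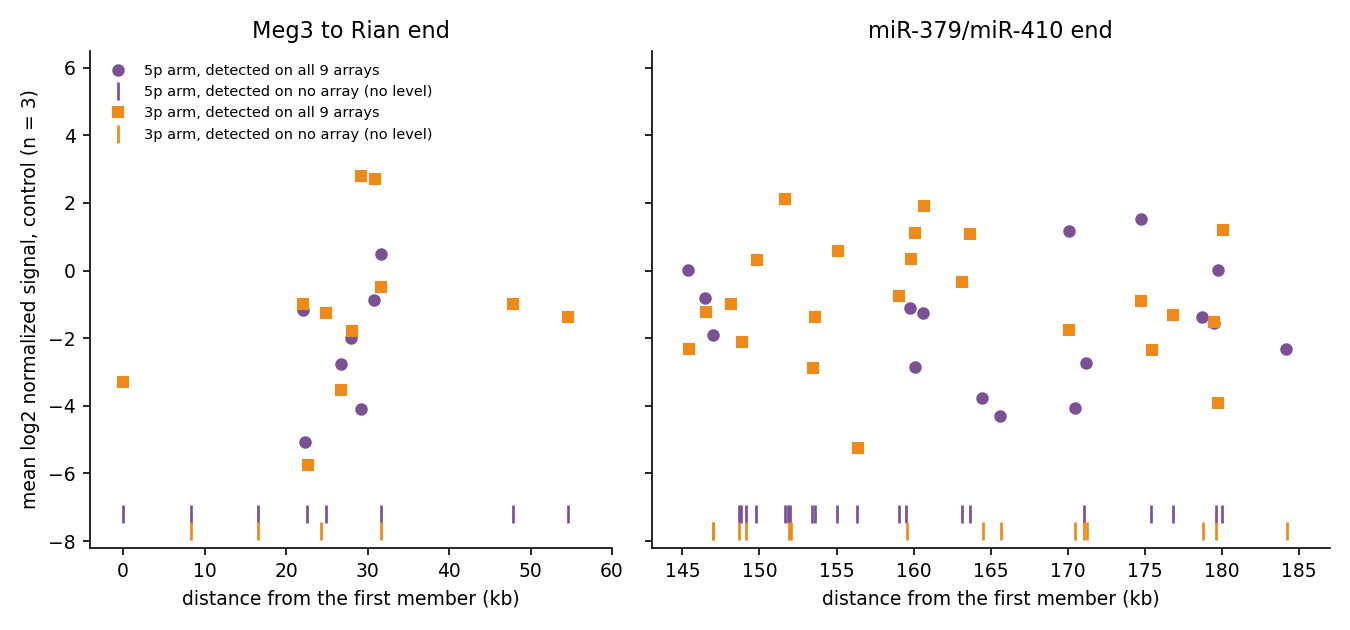
Mean log2 normalized signal of the members in the 3 control arrays (vertical axis) against distance in kb from the first member (horizontal axis), with the 2 ends of the cluster in separate panels and an empty stretch between them left out. Circles and squares are 5p and 3p arms detected on all 9 arrays, and ticks mark arms detected on no array, which have no level. Most arms in the stretch around 30 kb are detected, those of miR-3071 being the exception. Undetected arms lie in both panels, and the 4 brightest are 3p arms.

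The detected members covered a wide range of brightness, from 9.8 units for miR-665-3p to 3660 units for miR-127-3p as means of the control arrays. The 6 brightest were miR-127-3p, miR-434-3p, miR-494-3p, miR-300-3p, miR-154-5p and miR-410-3p, the last at 1230 units. Brightness depends on the probe as well as on the miRNA, so it is not an order of abundance. For miR-127-3p, which lies antisense to Rtl1, the log2 normalized signal (0 is the scaling percentile of the array) was 2.70, 2.86 and 2.81 in control, 2.89, 2.81 and 2.60 at 1 mg/kg bw, and 2.96, 2.91 and 2.69 at 5 mg/kg bw. For its neighbour miR-434-3p it was 2.76, 2.65 and 2.72 in control, 2.62, 2.79 and 2.71 at 1 mg/kg bw, and 2.78, 2.73 and 2.62 at 5 mg/kg bw. The 3 groups overlapped for both. miR-494-3p had the largest spread of the 6, with 2.44, 2.14 and 1.80 in control, 2.10, 1.88 and 1.62 at 1 mg/kg bw, and 1.90, 1.99 and 2.03 at 5 mg/kg bw.

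Of the 2 members detected on some arrays, miR-380-5p was detected on 2 arrays of each group and miR-540-3p on 0 control arrays, 1 array of the lower dose and 2 of the higher. Both were near background, with at most 15.8 and 12.7 units on any array, and neither was tested.

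The effect of the higher dose was compared first. At 5 mg/kg bw, 5 of the 57 members tested passed an unadjusted p under 0.05 against control, and all 5 were higher. Over all 424 miRNAs tested, 9.43% passed, while 4.01% passed and were higher and 5.42% passed and were lower. The median log2 change of the members was 0.10 (interquartile range 0.032 to 0.18), beside -0.0035 over all tested miRNAs, and 46 of 57 members (80.7%) had a change above 0 beside 48.8% of all tested. No member passed a Benjamini-Hochberg adjusted p under 0.05 (limma; the lowest among members was 0.376), and no other miRNA did either.

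The member with the smallest p was miR-381-3p, one of the activity-induced miRNAs of the miR-379 to miR-410 group. Its log2 normalized signal was -0.40, -0.29 and -0.29 in control, -0.10, -0.17 and -0.15 at 1 mg/kg bw, and 0.18, -0.02 and -0.14 at 5 mg/kg bw. All arrays of both PM2.5 groups lay above all control arrays, and replicate 1 of the 5 mg/kg bw group was the highest. The change was 0.33 (SE 0.09; limma, unadjusted p = 0.00571, adjusted p = 0.376) at 5 mg/kg bw and 0.18 (SE 0.09; limma, adjusted p = 0.594) at 1 mg/kg bw. Its 2 probes gave ratios of 1.34 and 1.25 of the 5 mg/kg bw mean to the control mean. It was the one call of these 5 that was kept under each of the 25 alternative settings, with a change between 0.24 and 0.49 and a limma adjusted p between 0.0337 and 0.996. Its close relative miR-300-3p had a change of 0.06 (SE 0.07; limma, adjusted p = 0.817), with 1.88, 1.91 and 1.92 in control and 2.08, 1.95 and 1.85 at 5 mg/kg bw.

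miR-376a-3p, whose precursor is known to be edited from A to I in brain, had 0.94, 1.20 and 1.22 in control, 1.24, 1.57 and 1.38 at 1 mg/kg bw, and 1.81, 1.60 and 1.28 at 5 mg/kg bw. The lowest array of each PM2.5 group lay just above the highest control array. The change was 0.44 (SE 0.15; limma, adjusted p = 0.46) at 5 mg/kg bw and 0.28 (SE 0.15; limma, adjusted p = 0.594) at 1 mg/kg bw. Its 2 probes gave ratios of 1.38 and 1.36. The unadjusted p by limma was 0.0602 both without replicate 1 of the 5 mg/kg bw group (change 0.32) and without control replicate 1 (change 0.36). miR-376b-3p, similar in sequence, had 0.14, 0.46 and 0.39 in control and 0.76, 0.61 and 0.23 at 5 mg/kg bw, a change of 0.20 (SE 0.14; limma, adjusted p = 0.698) with overlapping groups.

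miR-127-5p, the dimmer arm of the miR-127 hairpin, had -4.14, -4.08 and -4.07 in control, -3.92, -3.68 and -3.94 at 1 mg/kg bw, and -3.35, -3.60 and -4.02 at 5 mg/kg bw. The groups did not overlap, by a margin of 1 array that was barely above the controls. The change was 0.44 (SE 0.16; limma, adjusted p = 0.46) at 5 mg/kg bw and 0.24 (SE 0.16; limma, adjusted p = 0.689) at 1 mg/kg bw. The signal was low, with a mean of 38.9 units over the 9 arrays, and 3 of its 4 probes gave ratios of 1.29 to 1.33 while the fourth was at background. The change turned to -0.01 with normexp background correction, which added an offset of 50 units to each spot before probes were summed. That offset exceeded the mean signal of this miRNA, so this setting cannot decide whether its change holds. The unadjusted p by limma was 0.0558 without control replicate 1, 0.073 without replicate 1 and 0.0596 without replicate 2 of the 5 mg/kg bw group. The bright arm of the same hairpin, miR-127-3p, differed from control by 0.06 (SE 0.10; limma, adjusted p = 0.866).

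miR-540-5p had -5.10, -4.92 and -5.21 in control, -4.60, -4.89 and -4.97 at 1 mg/kg bw, and -4.38, -4.66 and -4.92 at 5 mg/kg bw. Its lowest 5 mg/kg bw array met the highest control array. The change was 0.42 (SE 0.15; limma, adjusted p = 0.469) at 5 mg/kg bw, at a mean signal of 19.6 units over the 9 arrays, with 2 of its 4 probes at background. It turned to -0.32 with the total signal of the files and to -0.04 with normexp background correction. The normexp offset of 50 units per spot exceeded this mean signal. The call was also lost without control replicate 1 or 3 and without replicate 1 or 2 of the 5 mg/kg bw group, with an unadjusted p between 0.0523 and 0.0889 by limma.

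miR-136-5p, antisense to Rtl1, had 0.43, 0.47 and 0.62 in control, 0.63, 0.76 and 0.56 at 1 mg/kg bw, and 0.96, 0.76 and 0.56 at 5 mg/kg bw. The control and 5 mg/kg bw arrays overlapped, and the change of 0.26 (SE 0.11) was at the edge of the threshold (limma, unadjusted p = 0.0495, adjusted p = 0.511), which it missed under 15 of 25 alternatives. Among these were the fits without control replicate 1 (change 0.22) or 2 (0.24), without any 1 array of the 1 mg/kg bw group (0.26 each), and without replicate 1 (0.16) or 2 (0.25) of the 5 mg/kg bw group.

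The number of calls at 5 mg/kg bw rested on single arrays. It was 1 without control replicate 1 and 2 without replicate 1 or without replicate 2 of the 5 mg/kg bw group. It was 26 without replicate 3 of that group, the array alone on its slide, when 120 of the 424 miRNAs passed. For the fits with 1 or 2 calls, the count over all tested is not given here. Those counts therefore do not show a loss particular to the members. With all arrays, 8.77% of the members passed beside 9.43% of all tested. With the slide row blocked, 1 member passed, the median change of the members was 0.026 beside 0.013 over all tested, and 36 of 57 were above 0. All control arrays were in row 1, so this fit took the row term from the PM2.5 groups alone. At 5 mg/kg bw the mean member deviation was 0.21 and 0.09 in row 2, and -0.12 in row 1, the array alone on its slide. At 1 mg/kg bw it was 0.02 and -0.10 in row 2 and 0.02 in row 1. With normexp background correction the median was 0.013 beside -0.047, and 33 of 57 were above 0. That setting added an offset of 50 units to each spot, which weighs most on dim miRNAs. The part of the slide row in the higher values at 5 mg/kg bw was not tested further. Without single arrays, the median change of the members was 0.041 without control replicate 1, 0.019 without replicate 1 of the 5 mg/kg bw group and 0.21 without its replicate 3.

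**Figure D2:**
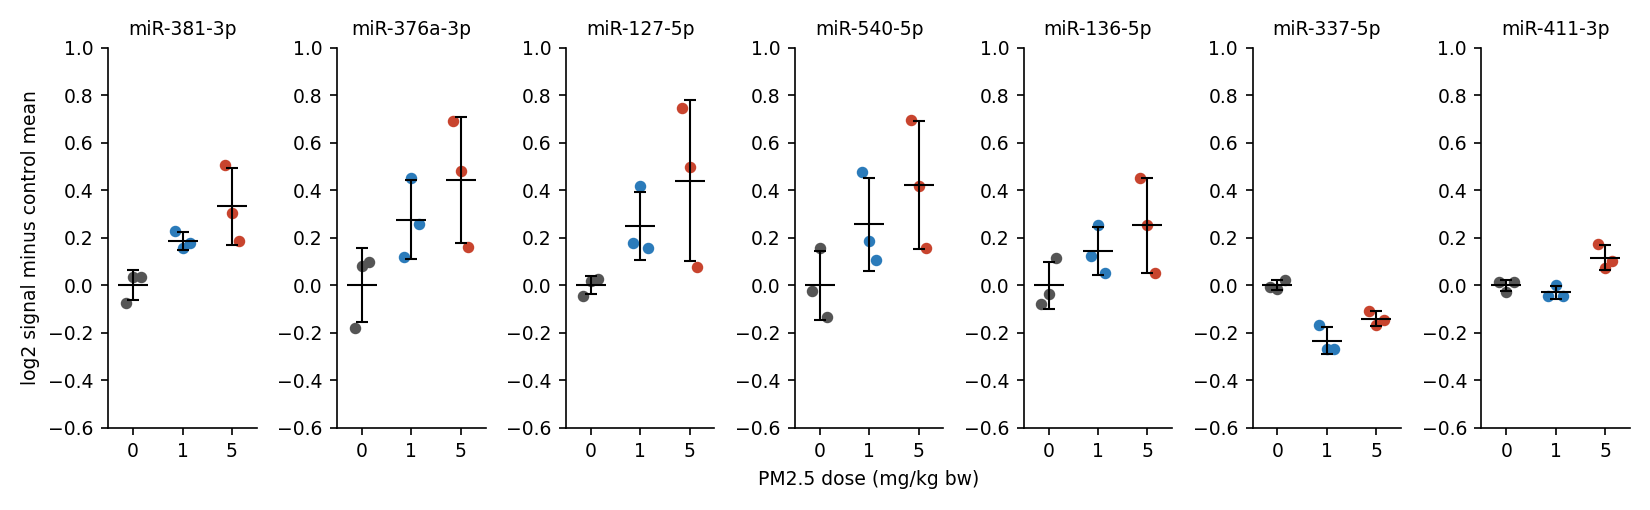
Log2 signal minus the control mean (vertical axis) by PM2.5 dose in mg/kg bw (horizontal axis) for the 7 members with an unadjusted p under 0.05 in at least 1 comparison, 3 arrays per dose as points, with the mean and SD. The points at 5 mg/kg bw spread widely for the first 5 members, with the highest point 0.5 or more above the control mean for 4 of these, while miR-337-5p and miR-411-3p spread little.

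At 1 mg/kg bw, 1 of the 57 members passed an unadjusted p under 0.05 against control, beside 7.78% of all miRNAs tested (2.83% higher and 4.95% lower), and 0 passed the adjusted p (limma; 1 of 424 did). The median log2 change of the members was 0.0086, beside -0.032 over all tested, and 30 of 57 were above 0, beside 39.9% of all tested. The call was miR-337-5p, of the miR-770 to miR-3070 group, which had -1.18, -1.19 and -1.15 in control, -1.34, -1.44 and -1.44 at 1 mg/kg bw, and -1.28, -1.34 and -1.32 at 5 mg/kg bw. Each PM2.5 array lay below each control array. The change was -0.23 (SE 0.06; limma, adjusted p = 0.288) at 1 mg/kg bw and -0.14 (SE 0.06; limma, unadjusted p = 0.0538) at 5 mg/kg bw, and its 2 probes gave ratios of 0.844 and 0.856 at 1 mg/kg bw. The call was lost under 3 of 25 alternatives, with a change of -0.12 with no scaling between arrays, -0.093 with the total signal of the files and -0.23 with no filter. The other arm, miR-337-3p, had -1.13, -0.94 and -0.92 in control, -0.93, -1.05 and -1.24 at 1 mg/kg bw, and -0.90, -1 and -1.19 at 5 mg/kg bw, with overlapping groups.

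Between the doses, 1 of 57 members passed an unadjusted p under 0.05 (3.77% of all tested, 1.42% higher and 2.36% lower), and no member passed the adjusted p (limma; 1 of 424 did). This was miR-411-3p, with -1.27, -1.22 and -1.27 at 1 mg/kg bw and -1.05, -1.15 and -1.12 at 5 mg/kg bw, a difference of 0.14 (SE 0.06; limma, unadjusted p = 0.0385, adjusted p = 0.995). Its control arrays, at -1.21, -1.25 and -1.21, lay within the range of the 1 mg/kg bw arrays or just above it. The call was lost under 18 of 25 alternatives, among them each single array left out in turn. The median difference of the members was 0.08, beside 0.04 over all tested miRNAs, and 55 of 57 members (96.5%) were above 0 beside 67.9% of all tested. The median SE of a member was 0.11 in each comparison.

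Counted by whether the 3 arrays of a group lay wholly above or below the 3 of the other, 6 members stood apart from control at 5 mg/kg bw (16% of all tested did, 6.6% higher and 9.43% lower), 9 at 1 mg/kg bw (12.3% of all tested, 4.72% higher and 7.55% lower) and 6 between the doses (7.31% of all tested, 5.9% higher and 1.42% lower). At 5 mg/kg bw these were miR-381-3p, miR-376a-3p, miR-127-5p, miR-382-5p and miR-411-3p, which were higher, and miR-337-5p, which was lower. At 1 mg/kg bw 4 were higher and 5 lower, and between the doses all 6 were higher at 5 mg/kg bw. The comparisons at both doses share the control arrays, and the difference between the doses shares its arrays with both.

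**Figure D3:**
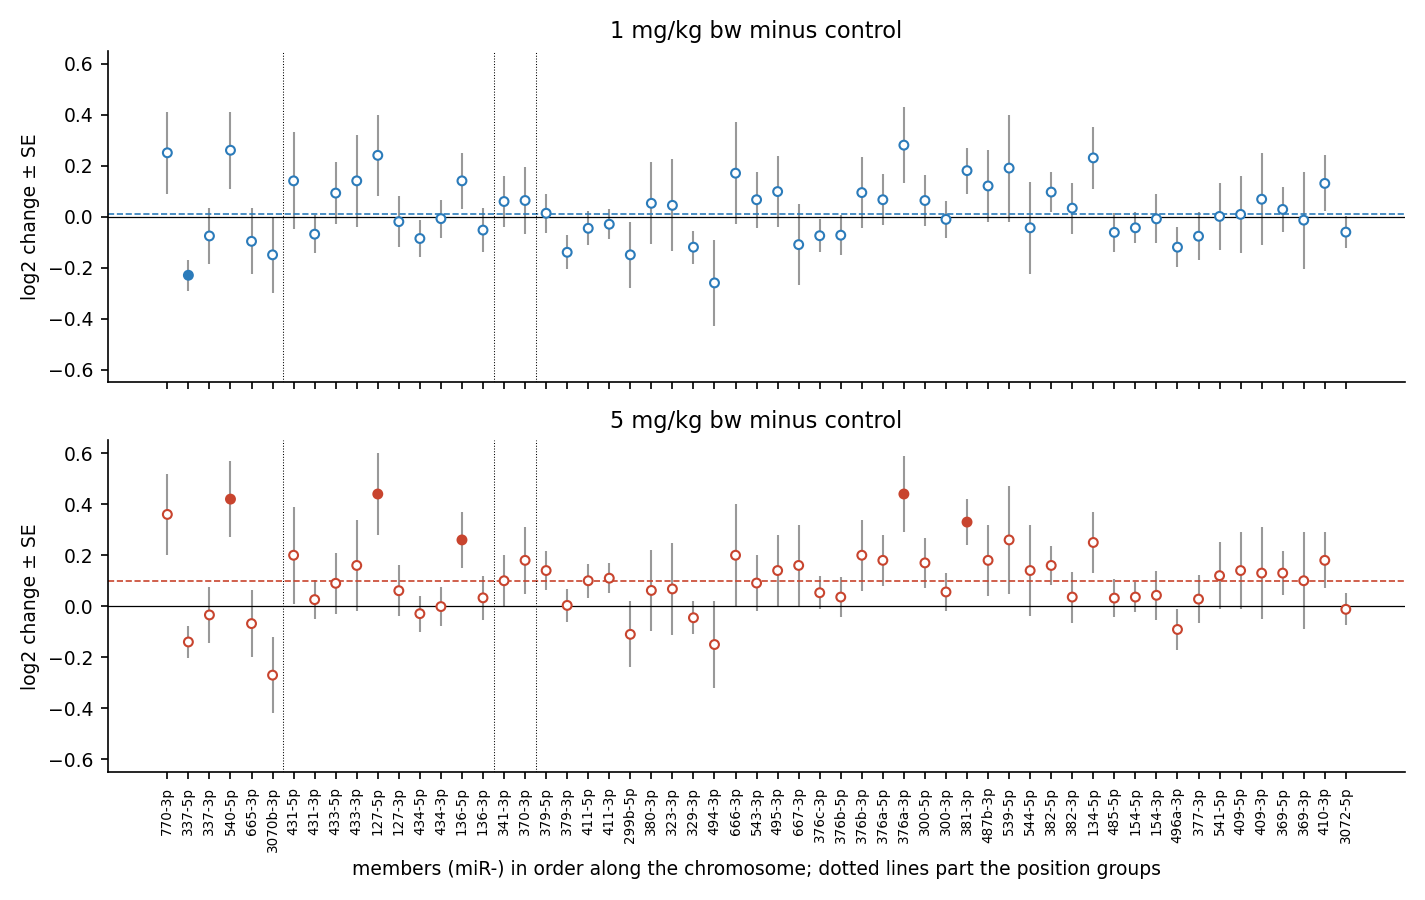
Log2 change against control with its SE (vertical axis) for the 57 members in order along the chromosome (horizontal axis), at 1 mg/kg bw (upper panel) and 5 mg/kg bw (lower panel). Filled points passed an unadjusted p under 0.05, dashed lines are the medians of the members, and dotted lines part the position groups. At 5 mg/kg bw most points lie above 0, with SEs that mostly reach or cross 0.

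By position, the median change at 5 mg/kg bw was 0.11 for the 39 members of the miR-379 to miR-410 group (34 above 0), 0.08 for the 10 antisense to Rtl1 (8 above 0), 0.14 for the 2 of the Rian interval and -0.05 for the 6 of the miR-770 to miR-3070 group (2 above 0). At 1 mg/kg bw the medians were 0.0086, 0.04, 0.06 and -0.09 in the same order. Differences between the position groups were not tested.

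Among the members with known roles in neurons, miR-134-5p limits the size of dendritic spines through Limk1. It had -4.10, -3.90 and -4.22 in control, -3.78, -3.75 and -4.01 at 1 mg/kg bw, and -3.63, -3.83 and -4 at 5 mg/kg bw. The change was 0.25 (SE 0.12; limma, unadjusted p = 0.077) at 5 mg/kg bw and 0.23 (SE 0.12; limma, unadjusted p = 0.108) at 1 mg/kg bw. One array of each PM2.5 group lay within the control range. miR-329-3p, which acts with miR-134 in the activity-dependent growth of dendrites, had 0.29, 0.30 and 0.32 in control, 0.25, 0.17 and 0.12 at 1 mg/kg bw, and 0.31, 0.26 and 0.20 at 5 mg/kg bw. Here the 1 mg/kg bw arrays were all below the controls, with a change of -0.12 (SE 0.06; limma, unadjusted p = 0.0859).

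miR-485-5p, which acts at the presynaptic terminal, had a log2 change of 0.03 (SE 0.08) at 5 mg/kg bw and -0.06 (SE 0.08) at 1 mg/kg bw. miR-379-5p, the first miRNA of its group, had 0.14 (SE 0.08) and 0.01 (SE 0.08). miR-410-3p, the last of the classical group, had 0.18 (SE 0.11) and 0.13 (SE 0.11). None of these passed an unadjusted p under 0.05. miR-369-3p had 0.10 (SE 0.19) and -0.01 (SE 0.19), miR-433-3p 0.16 (SE 0.18) and 0.14 (SE 0.18), and miR-370-3p 0.18 (SE 0.13) and 0.06 (SE 0.13). miR-495-3p had 0.14 (SE 0.14) and 0.10 (SE 0.14), miR-543-3p 0.09 (SE 0.11) and 0.07 (SE 0.11), and miR-376c-3p 0.05 (SE 0.06) and -0.08 (SE 0.06). With 3 arrays per group, each of these changes was smaller than 2 SE in both comparisons.

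The members varied together across arrays of the same group. After the mean of each group was removed, the median Pearson correlation over the 1596 pairs of the 57 members was 0.71 (interquartile range 0.32 to 0.88), beside 0.01 over the 77815 pairs of all 395 detected miRNAs, and 84.7% of member pairs were above 0 beside 50.7% of all pairs. With Spearman's correlation the medians were 0.63 and 0.02, and with the group means kept, 0.61 and 0.03. These are descriptions over 9 arrays that share slides, RNA preparation and one scaling, and no test is attached to them. Among the settings that keep the same members, their median pairwise correlation was lowest, at 0.41, with the total signal of the files. There it stood beside 0.24 over all detected miRNAs and 0.32 over pairs of non-members. With no scaling it was 0.66 beside 0.38 over all, and with normexp background correction (offset 50 units per spot) 0.73 beside 0.31. The value near 0 over all pairs thus depended on the processing. Without replicate 3 of the 5 mg/kg bw group the members' median was 0.55. Left out next were the 2 arrays in which the members stood farthest from their median with the group means kept. These were replicate 1 of the 5 mg/kg bw group and replicate 1 of the control group. Without both, the members' median was 0.57, beside 0.02 for all detected miRNAs. Without the first alone it was 0.58, and without the second alone 0.72. Replicates 1 and 3 of the 5 mg/kg bw group were not left out together.

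**Figure D4:**
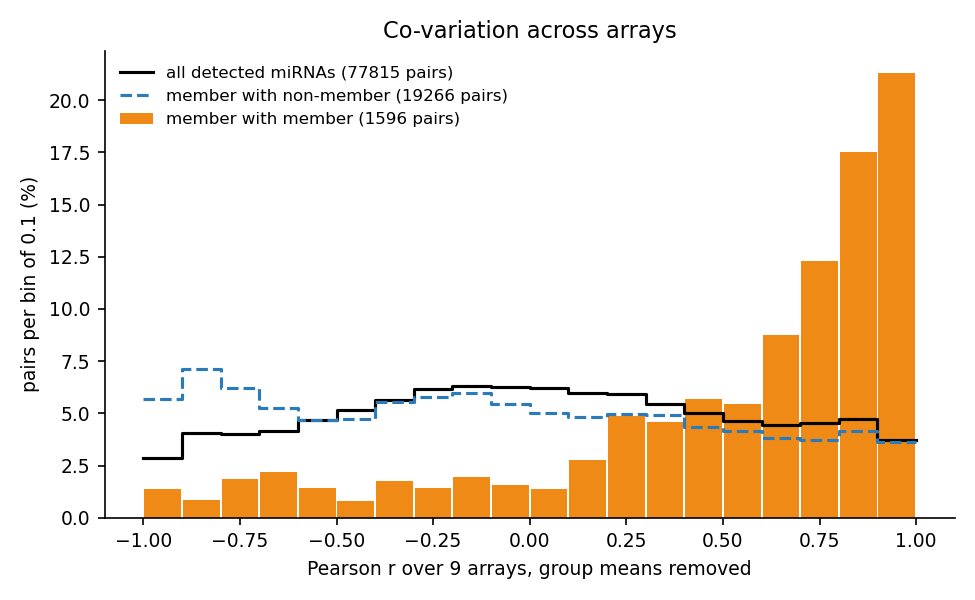
Share of pairs in percent (vertical axis) in bins of 0.1 of the Pearson correlation over 9 arrays with group means removed (horizontal axis), for pairs of members (bars), pairs of all detected miRNAs (solid line) and pairs of a member with a non-member (dashed line). The bars pile up towards 1, with 21.3% of member pairs above 0.9 beside 3.73% of all pairs.

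The members were high and low on the same arrays. Averaged over the 57 members, the deviation from each miRNA's own mean was -0.13, 0.0032 and -0.0022 on the control arrays, 0.02, 0.02 and -0.10 at 1 mg/kg bw, and 0.21, 0.09 and -0.12 at 5 mg/kg bw. Replicates 1 and 2 of the 5 mg/kg bw group were the highest of the 9 arrays, and replicate 3 of that group was at the level of control replicate 1, the lowest. Of the 57 members, 10, 34 and 30 were above their own mean on the control arrays, 34, 30 and 6 on those of the lower dose, and 53, 52 and 10 on those of the higher dose. The group means were -0.04 ± 0.07 in control, -0.02 ± 0.07 with the lower dose and 0.06 ± 0.17 with the higher (SD, n = 3), so the spread inside the 5 mg/kg bw group exceeded the distance between the groups.

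**Figure D5:**
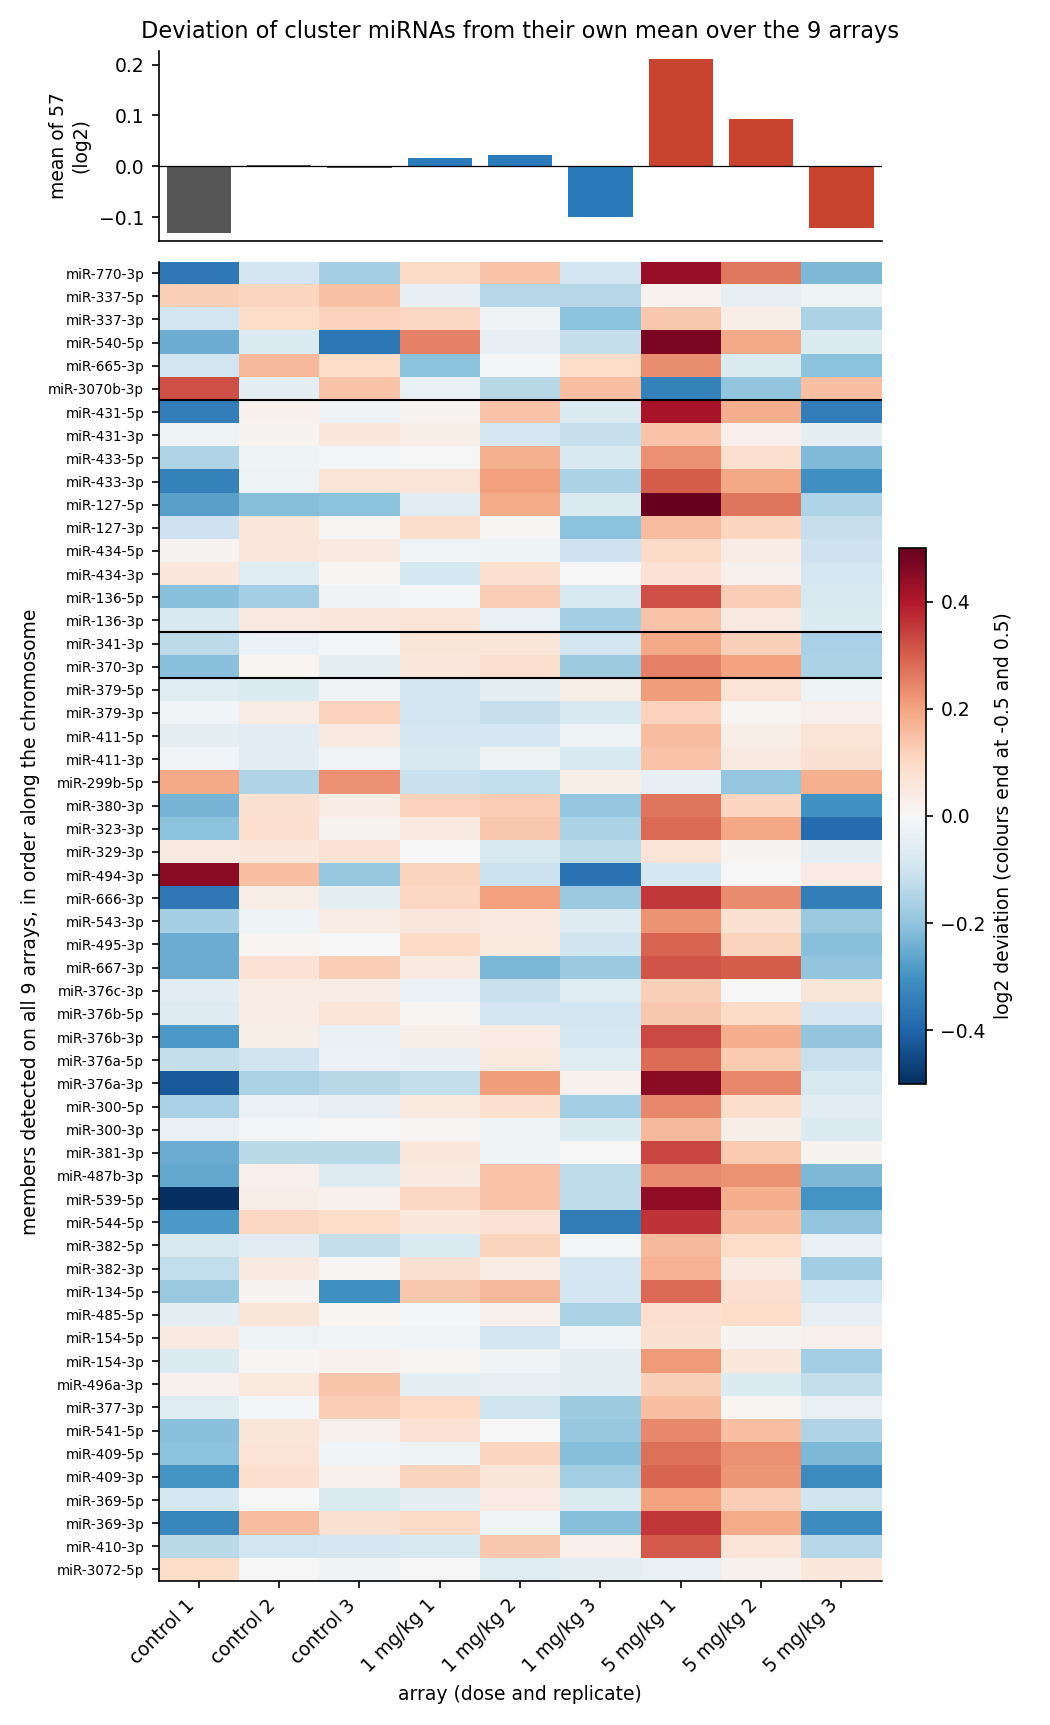
Log2 deviation of each of the 57 members from its own mean over the 9 arrays (colour, red above and blue below; rows in order along the chromosome, columns are arrays by dose and replicate, black lines part the position groups), with the mean over the 57 members as bars on top. Replicates 1 and 2 at 5 mg/kg bw are red, and control replicate 1 and replicate 3 of both PM2.5 groups blue, through most of the cluster, while miR-3070b-3p runs the other way.

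By position, the median correlation was 0.73 for the 794 pairs from different position groups and 0.70 for the 787 pairs of different hairpins in one group. It was 0.83 within the 10 members antisense to Rtl1, where all 45 pairs were above 0, and 0.68 within the miR-379 to miR-410 group. Within the 6 members of the miR-770 to miR-3070 group it was 0.32, over 15 pairs. With the mean of the other members, those 6 ranged from 0.99 for miR-770-3p to -0.95 for miR-3070b-3p. For the 15 hairpins with both arms detected, the correlation of the arms was above 0 in each, with a median of 0.72, from 0.96 for miR-409 to 0.13 for miR-154. The 3 highest pairs were miR-409-5p with miR-487b-3p (r = 0.995), miR-370-3p with miR-666-3p (r = 0.99) and miR-409-5p with miR-666-3p (r = 0.99), of which miR-370 lies in the Rian interval, and miR-370-3p, miR-409-5p and miR-666-3p have 3 different seeds. miR-409-5p had -1.69, -1.42 and -1.50 in control, -1.51, -1.38 and -1.70 at 1 mg/kg bw, and -1.21, -1.26 and -1.71 at 5 mg/kg bw. miR-370-3p had -1.49, -1.27 and -1.33, then -1.23, -1.20 and -1.46, then -1.03, -1.08 and -1.44 in the same order. In both, replicate 3 was the lowest array of each PM2.5 group.

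Set against the mean of the other members, 47 of 57 had a correlation above 0.5 and 39 above 0.8. miR-382-3p, miR-495-3p, miR-543-3p and miR-770-3p each reached 0.99. The median SD within a group was 0.05 for the 10 at 0.5 or less, beside 0.15 for the 47. The median change at 5 mg/kg bw was 0.13 for the 47 members (42 above 0) and -0.0066 for the other 10 (4 above 0). In mature sequence, the GC content of the detected members (median 45.5%, 53 with a sequence; 47.8% for all detected array miRNAs with one) had a Spearman correlation of -0.08 with this measure across members, which are not independent replicates.

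The correlation was below 0 for 5 members, namely miR-154-5p (-0.13), miR-494-3p (-0.22), miR-299b-5p (-0.63), miR-3072-5p (-0.69) and miR-3070b-3p (-0.95). miR-299b is read from the minus strand, opposite to most of the cluster, and miR-3072-5p had the highest GC content of the detected members, 77.3%. miR-3070b-3p had -1.09, -1.46 and -1.27 in control, -1.45, -1.55 and -1.26 at 1 mg/kg bw, and -1.75, -1.61 and -1.26 at 5 mg/kg bw, highest where the other members were lowest. The 3 lowest pairs all held it, with miR-487b-3p, miR-409-5p and miR-666-3p, each at r = -0.97. Its change at 5 mg/kg bw was -0.27 (SE 0.15; limma, unadjusted p = 0.109).

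The array pattern was not particular to the cluster. Of the 338 other detected miRNAs, 39 had a correlation above 0.8 with the member mean and 69 one below -0.8, and the median over pairs of a member with a non-member was -0.12. The most similar, named after their values were seen, were miR-467a-3p (0.99), miR-138-5p, miR-669f-3p and miR-7b-5p (0.97 each), and the most opposed miR-497-5p, let-7b-5p and let-7c-5p (-0.99 each). Of the neuronal markers, miR-138-5p (0.97) and miR-137-3p (0.95) ran with the members and miR-124-3p (-0.86), miR-128-3p (-0.79) and miR-132-3p (-0.76) against them. The oligodendrocyte markers miR-338-3p (-0.90) and miR-219-5p (-0.73) and the endothelial marker miR-126-3p (-0.94) ran against them, while miR-126-5p was at 0.08. The immune cell marker miR-142-3p was at 0.86 and miR-223-3p at -0.04, with miR-142-5p not detected on any array. Of the choroid plexus markers miR-204-5p was at 0.31 and miR-211-5p at 0.50, and the red cell marker miR-451a was at 0.46. The muscle markers miR-1a-3p and miR-133a-3p were at -0.77 and -0.83, and the general neural markers miR-9-5p and miR-9-3p at 0.08 and -0.59. The summed scaled signal of the 2 oligodendrocyte markers ranged from 3.63 to 5.24 in control, 4.47 to 5.53 at 1 mg/kg bw and 2.57 to 5.87 at 5 mg/kg bw, and that of the 5 neuronal markers from 138 to 162, 117 to 140 and 131 to 154.3. In the same order of groups the sum ranged from 41.5 to 42.3, 38.4 to 44.8 and 44.9 to 45.8 for the general neural markers, and from 5.48 to 6.02, 5.57 to 6.06 and 5.53 to 6.34 for the endothelial ones. It ranged from 3.07 to 4.88, 5.36 to 8.74 and 2.85 to 5.56 for the choroid plexus markers, and from 2.90 to 3.69, 2.98 to 3.51 and 3.77 to 4.08 for the red cell markers. For the immune cell markers it ranged from 0.264 to 0.278, 0.273 to 0.315 and 0.289 to 0.325, and for the muscle markers from 0.193 to 0.33, 0.255 to 0.303 and 0.177 to 0.354. The part of the cell types in the shared pattern was not tested.

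Of 10 array entries from other imprinted regions (miR-335, miR-296, miR-298, miR-483 and miR-675), 4 were detected on all arrays. Only these 4 (miR-296-5p, miR-335-3p, miR-335-5p and miR-483-5p) and miR-298-5p, detected on 7 arrays, were tested. None of the tested entries passed an unadjusted p under 0.05 against control with either dose. Over all tested miRNAs, 9.43% passed with the higher dose and 7.78% with the lower. With so few entries tested, the absence of calls cannot tell them apart from all tested miRNAs. With the mean of the cluster members, miR-335-3p (from the imprinted Mest gene) had a correlation of 0.90, miR-296-5p 0.78 and miR-335-5p 0.77, and miR-483-5p (from Igf2) 0.05.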

How the data were processed

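Hippocampal RNA in 3 groups was measured on 9 Agilent mouse miRNA arrays. Per the file headers and the submitters' processing notes, the authors extracted the scans with Agilent Feature Extraction 10.7, and the deposited intensity of a spot is its background-subtracted signal, with no scaling between arrays. The authors' own log2 values, in a deposited table whose columns share their 75th percentile by a method not given in the sources used here, served as an alternative. Positions and sequences are RefSeq's (GRCm38.p6). A member had 1 to 4 probes on 40 spots.

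Outlier spots were dropped, spots averaged per probe and probes summed per miRNA. Arrays were then divided by their 75th percentile over the 395 miRNAs that all 9 arrays detected, floored at the lowest detected signal of the array, and put on the log2 scale. Tested were 424 miRNAs, those with detection throughout at least 1 group, in a single limma fit (version 3.58.1, R 4.3.3) of the 3 groups with moderated variances and Benjamini-Hochberg adjustment. The unadjusted threshold of 0.05 is the one the study screened with. Correlations used log2 values with group means removed. Figures and sequence tables were made with Python 3.11.15. For arrays, precision is limited by their number. On simulated data for the comparison of 5 mg/kg bw with control (424 miRNAs), the fit found 92.1% of 40 true changes of 1 in log2 after adjustment, and gave 5.09% of the unchanged an unadjusted p under 0.05. The simulated noise was independent between miRNAs and held no slide or row effect. The planted change exceeded the largest member change at 5 mg/kg bw, 0.44. These shares therefore do not carry over to changes of the members' size or to miRNAs that vary together.

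The members and the lists (position groups, cell type markers, other imprinted miRNAs) were chosen with earlier results of these data known. Named with values were members with an unadjusted p under 0.05, the 6 brightest in control, 15 with textbook roles in neurons, those detected on some arrays, and the 3 highest and 3 lowest correlated pairs. Others named with values (close relatives, other arms of called hairpins, and members correlated below 0 with the rest) were chosen after their values were seen. Alternatives were other scalings, signals, filters, samples, blocks and each array left out in turn. The normexp background correction among them added an offset of 50 units to each spot. Spearman's correlation and the omission of the 2 farthest arrays were added after seeing the data.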

Additional observations from a re-analysis of the deposited data

How the results depend on the processing

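The direction of the called members held in most settings, and the counts of calls did not. Most member counts below stand without the count over all tested miRNAs in the same setting. Those show only that the count moved with the processing, and are not read as results about the cluster. Where the count over all tested is given, it moved as well. The count of members past an unadjusted p at 5 mg/kg bw (5) was 11 with no scaling between arrays, 33 with the total signal of the files (102 of all tested), 26 with the slide as a block, which leaves out the array alone on its slide (120 of all tested), and 1 when slide rows were blocked (14 of all tested). It ranged from 1 to 26 with 1 array left out. Past an adjusted p it was 1 with the total signal. The median change at 5 mg/kg bw (0.10) was 0.22 both with no scaling and with the total signal, where the median of all tested miRNAs moved to 0.11 and 0.14, and -0.061 with no filter. It was 0.013 with normexp and 0.026 with slide rows blocked, with 33 and 36 of 57 members above 0. It was between 0.019 (without replicate 1 of the 5 mg/kg bw group) and 0.21 (without its replicate 3) with 1 array left out. At 1 mg/kg bw the count of 1 was 6 with no scaling, 2 with quantile normalization, 7 with the total signal, 44 with no filter, 4 with the arrays of the 2 groups alone, 3 without moderation of the variances, 5 with the slide as a block and 1 to 5 with 1 array left out (5 without replicate 3 of the 5 mg/kg bw group). Past an adjusted p, 43 passed with no filter, where undetected entries sit at the floor of each array. The median at 1 mg/kg bw (0.0086) was 0.13 with the total signal and -0.12 with no filter, and -0.023 to 0.075 with 1 array left out. Between the doses the count of 1 was 0 with the 75th percentile of all miRNAs, no scaling, normexp, no filter or 2 groups alone, 2 with median scaling or the mean over probes, 3 with quantile normalization or the deposited log2 values, 4 with the total signal, 6 without moderation, 10 with the slide as a block and 0 to 10 with 1 array left out (10 without replicate 3 of the 5 mg/kg bw group, 0 without any other). The median difference between the doses (0.081) was 0.024 without replicate 1 and 0.16 without replicate 3 of that group. Reversed were miR-127-5p at 5 mg/kg bw with normexp (-0.012) and miR-540-5p with the total signal (-0.32) and normexp (-0.044). The normexp offset of 50 units per spot was above the mean signal of both miRNAs. Where the construction does not show it, the cause was not tested. The median correlation of members stayed between 0.37 (no filter) and 0.80, while that of all detected miRNAs rose to 0.24 with the total signal, 0.31 with normexp and 0.38 with no scaling. Same-numbered replicates were not paired by the labels, and their deviations correlated between -0.65 and 0.74. With a replicate block the counts were 6 at 5 mg/kg bw, 2 at 1 mg/kg bw and 0 between the doses, and the median correlation was 0.78. Signals near background, as for miR-127-5p and miR-540-5p, limit what can be told of dim members.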
